A study of Mus musculus with 2 samples.

Results

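The AP-2 transcription factor genes Tfap2a, Tfap2b, Tfap2c, Tfap2d and Tfap2e were examined in a list of TET2 binding peaks from mouse adipocytes. They were taken by name, as the family that has a binding site in the promoter of the leptin gene, and are 5 of 21951 protein-coding genes of the GENCODE M21 annotation on GRCm38. Of the 5 genes, 1 had a TET2 peak at a transcription start site (TSS) and in its body. That gene was Tfap2a. Over all protein-coding genes the shares were 24.6% at a TSS and 32.1% in the body, so a count of 1 of 5 was close to the background. The other 4 genes had neither, and Tfap2b and Tfap2d lay together in a stretch of 1372 kb without a peak.

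The study measured where TET2 binds DNA by chromatin immunoprecipitation and sequencing (ChIP-seq). Adipose-derived stem cells (ASCs) were grown with β-FGF from the stromal vascular fraction of mouse inguinal white adipose tissue. At the third passage and at confluence they were induced with IBMX, dexamethasone and insulin and then kept in insulin, which yields cells of adipocyte type in a dish rather than adipocytes taken from fat. There was 1 TET2 library and 1 input library, the latter being chromatin sequenced without immunoprecipitation, and the labels give no genotype, sex or age for either. No expression was measured in the series, so the identity of the cells could not be checked against marker transcripts, and a peak is no measure of how much of a gene is expressed.

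AP-2 proteins bind GC-rich palindromes as dimers and act mainly in development. TFAP2A acts in the neural crest, the face and the epidermis, TFAP2B in the neural crest, the kidney and the ductus arteriosus, TFAP2C in the trophoblast, germ cells and mammary gland, TFAP2D in the developing midbrain and retina, and TFAP2E in the olfactory system. In fat, AP-2β, the product of Tfap2b, is known as a regulator of adipokine genes. TET2 is a dioxygenase that oxidises 5-methylcytosine in CpG dinucleotides to 5-hydroxymethylcytosine, and it is brought to DNA by other proteins.

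The list held 14103 peaks of 375 to 3392 bp, with a median length of 426 bp. The −log10 p of each peak, which the authors' peak caller computed against the input, ranged from 3.07 to 335.2 with a median of 6.21, and 11921 of the peaks had a value of at least 5. The number of reads behind each library is not given in the sources used here, and without replicates no value has a replicate error. Intervals given below are exact 95% intervals, binomial for shares and Poisson for counts, and cover counting error only.

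The sequence that ties the family to leptin is the AP-2β site annotated at Lep, the leptin gene. It lies at chr6:29060243-29060270 on GRCm38, with its centre 36 bp after the nearest TSS, and was inside a TET2 peak. It is printed on the plus strand, 5′ to 3′, with the AP-2 motif GCCNNNGGC in capitals. Of the 8 annotated AP-2 sites, 3 hold a match to this motif, at Lep, at Ada and in 1 of 3 sites near Sox10. The other sites of at most 30 bases, at Nr5a1, at Adh1 and in another site near Sox10, are printed in the same way and hold none.
Lep: tgcaaggtaagGCCCGGGGCgcgctact
Nr5a1: ccccacgtgactctgcaggcctttctcctc
Adh1: caaaatgtgcccaacagcactcgt
Sox10: ccgcccccaggcgccacctc

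Of the peaks at the AP-2 genes, the peak inside Tfap2a is shown because it is the only peak in the body of a family member. The printed stretch is the first 300 bases by coordinate, chr13:40728233-40728532 on GRCm38, read on the minus strand like the gene, with the AP-2 motif in capitals.
Tfap2a peak: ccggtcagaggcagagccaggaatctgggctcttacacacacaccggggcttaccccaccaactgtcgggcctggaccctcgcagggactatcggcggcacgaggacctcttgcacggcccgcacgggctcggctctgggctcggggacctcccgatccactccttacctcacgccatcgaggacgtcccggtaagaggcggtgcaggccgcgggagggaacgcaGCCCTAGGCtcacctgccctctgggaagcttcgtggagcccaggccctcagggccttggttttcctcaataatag
The other printed stretch is the central 200 bases of the peak nearest to Tfap2c, chr2:172636167-172636366 on the plus strand. It has no match to the motif and ends in a run of repeated GGAGCC units.
Tfap2c nearest peak: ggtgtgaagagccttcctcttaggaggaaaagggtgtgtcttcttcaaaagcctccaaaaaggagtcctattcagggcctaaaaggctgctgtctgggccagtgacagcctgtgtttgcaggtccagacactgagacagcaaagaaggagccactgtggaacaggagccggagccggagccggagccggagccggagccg

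Tfap2a (ENSMUSG00000021359.16) spans 23075 bp at chr13:40715302-40738376 on the minus strand and has 9 annotated transcripts, each with its own TSS. Its peak, chr13:40728233-40728672, is 440 bp long and has its midpoint at 40728452. Of the 9 TSSs, 2 lay within 1 kb of that midpoint, the distance that counted as a peak at a TSS. One belongs to the protein-coding transcript ENSMUST00000225180.1, 492 bp away, and the other to the processed transcript ENSMUST00000224700.1, 951 bp away. The TSSs of the other 7 transcripts were 1991 to 9924 bp from it. Both close TSSs are internal to the gene, and the midpoint lies 9924 bp inside the gene from its 5′ end. In the RefSeq promoter table, which lists fewer starts, the nearest Tfap2a start was 5343 bp from the midpoint. The call of a peak at a TSS therefore rests on the internal starts of the GENCODE annotation.

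The peak of Tfap2a was mostly exonic. Of its 440 bp, 331 bp (75.2%) fell in the exon chr13:40728342-40728776, which 8 of the 9 transcripts share with both ends alike, and which is coding in all 6 coding transcripts or part of a longer coding exon. The ninth is ENSMUST00000225180.1, whose first exon reaches from 40728342 to 40728944. The other 109 bp fell in the following intron. Over the whole list, 2825 peaks (20.0%) had a midpoint in a coding exon, and 1302 of those were over 1 kb from any TSS. An antisense gene of unknown function, Gm26688, runs over the same place from 40727808 to 40735162 on the plus strand, with its TSS 644 bp from the midpoint, so the list does not separate this start from those of Tfap2a.

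The Tfap2a peak had a −log10 p of 7.63, against a median of 6.21 over all peaks and of 7.05 over peaks in coding exons. It was number 3895 of 14103 by this value, with 27.6% of peaks larger. Among the 5824 peaks within 1 kb of any TSS, whose median was 6.90, 34.8% were larger. The value is shared by 84 peaks, so the rank is coarse. Its GC content was 65.9%, against a median of 59.5% over all peaks and of 65.6% over peaks at a TSS. Its CpG ratio, the number of CpG dinucleotides over that expected from its C and G content, was 0.674, between the medians of 0.512 over all peaks and 0.775 over peaks at a TSS. Repeats covered 5.23% of it.

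**Figure D1:**
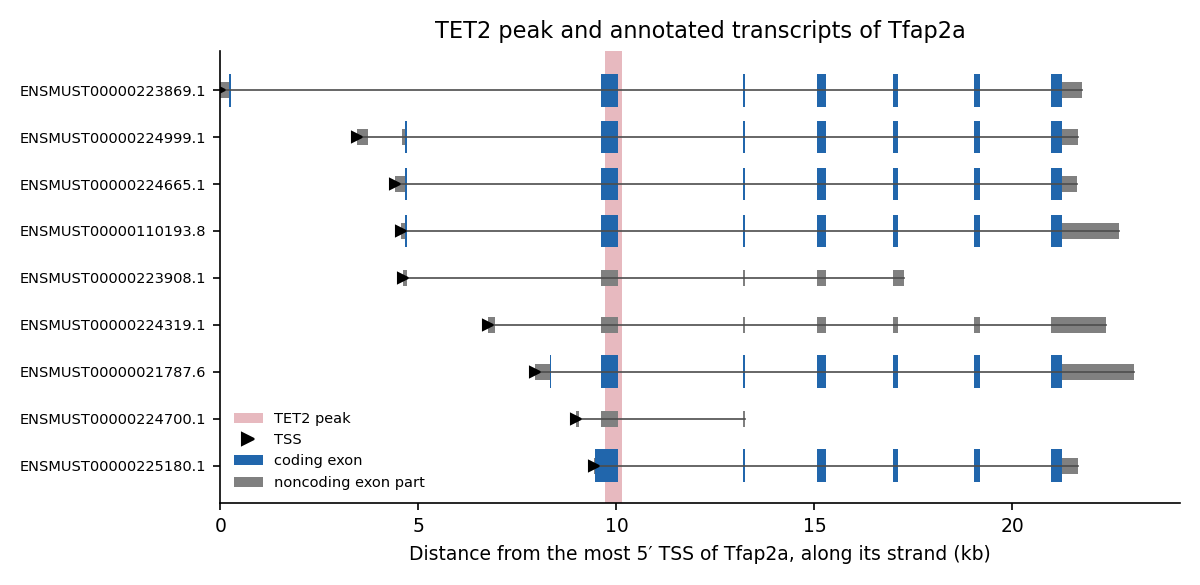
The Tfap2a gene with its transcripts, drawn by distance in kb from the 5′ end of the gene along the direction of transcription. Boxes are exons, thin lines are introns and the shaded band is the peak, which overlaps an exon that 8 of the 9 transcripts share and lies after every TSS of the gene, the nearest at 492 bp.

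Around Tfap2a there were 5 peaks within 100 kb of the gene, or 22.4 per Mb (7.28 to 52.3), where the density over the genome, 5.17 peaks per Mb, gives 1.15 peaks for a stretch of this length. Besides the peak in the gene, one lay 6442 bp upstream of its 5′ end with a −log10 p of 8.52, in sequence annotated to no gene. A second lay 39588 bp upstream with a −log10 p of 9.72, 76 bp from the start of the pseudogene Gm6245. Downstream, one lay 11306 bp beyond the 3′ end with a −log10 p of 8.31, 9 bp from the start of the long noncoding RNA gene Gm9979. The last, 120.3 kb from the 5′ end, had a −log10 p of 6.98, and repeats covered 69.6% of it. The peak inside the gene had a larger −log10 p than the last of these and a smaller one than the other 3. The coding neighbours on either side, Ofcc1 at 353.9 kb and Gcnt2 at 121.4 kb, had no peak within 1 kb of a TSS.

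Tfap2b (ENSMUSG00000025927.13; chr1:19208914-19238576, plus strand, 29663 bp) and Tfap2d (ENSMUSG00000042596.7; chr1:19103022-19166346, plus strand, 63325 bp) are neighbours, 42568 bp apart. Neither had a peak at any of its TSSs, 5 for Tfap2b and 2 for Tfap2d, nor in its body, nor within 100 kb. A count of 0 peaks in these windows allows up to 16.1 per Mb around Tfap2b and 14.0 per Mb around Tfap2d, both above the density over the genome, so the windows alone do not show a depletion. The nearest peak was the same for both genes, chr1:18872113-18872487, at 336614 bp upstream of Tfap2b and 230722 bp upstream of Tfap2d. It had a −log10 p of 5.74 and one match to the AP-2 motif. On the other side the next peak, chr1:20244204-20244578, lay in an intron of Pkhd1 and had a −log10 p of 4.12.

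The stretch between these peaks, 1371716 bp long, was longer than nearly all others. Of the 14081 gaps between neighbouring peaks on a chromosome, 0.597% were longer, and the median gap was 97.0 kb. The only 2 protein-coding genes that lie wholly inside it are Tfap2d and Tfap2b. The nearest coding genes on either side, Defb41 at 837.9 kb from Tfap2d and Pkhd1 at 819.2 kb from Tfap2b, had no peak within 1 kb of a TSS, and Pkhd1 had 3 in its body. How well reads map in this stretch was not tested.

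Tfap2c (ENSMUSG00000028640.11; chr2:172549593-172558622, plus strand, 9030 bp) has 6 TSSs and had no peak at any of them or in its body. Its nearest peak, chr2:172636040-172636493, lay 84150 bp from its last TSS and 77644 bp beyond its 3′ end, between genes. This peak had a −log10 p of 6.32, close to the median of the list, a GC content of 63.0%, and repeats over 30.2% of it. Upstream there was none for 1052028 bp. The gap that holds Tfap2c was 1138 kb long, with 1.19% of gaps longer, and holds 10 protein-coding genes. Fam209, 75.3 kb away on the lower side, had no peak at a TSS, whereas Bmp7, 309.4 kb away on the other and outside the gap, had one 28 bp from a TSS.

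Tfap2e (ENSMUSG00000042477.7; chr4:126716006-126736240, minus strand, 20235 bp) has a single TSS and was the opposite case, a gene without a peak between neighbours that have one. Psmb2, which encodes a proteasome subunit and lies 6.29 kb away, had a peak 14 bp from a TSS with a −log10 p of 4.84. That value is below 5, the threshold that the methods state, so the contrast on this side rests on a weak peak. Ncdn, which encodes the neuronal protein neurochondrin and lies 7.51 kb away, had a peak 26 bp from a TSS with a −log10 p of 6.82. The Ncdn peak, chr4:126753196-126753570, was the nearest to Tfap2e, 17143 bp upstream of its TSS. The gap between the Psmb2 and Ncdn peaks was 75364 bp, shorter than 57.2% of all gaps. Within 100 kb of Tfap2e there were 3 peaks, or 13.6 per Mb (2.81 to 39.8), the third lying 116.4 kb from its 5′ end with a −log10 p of 8.46.

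**Figure D2:**
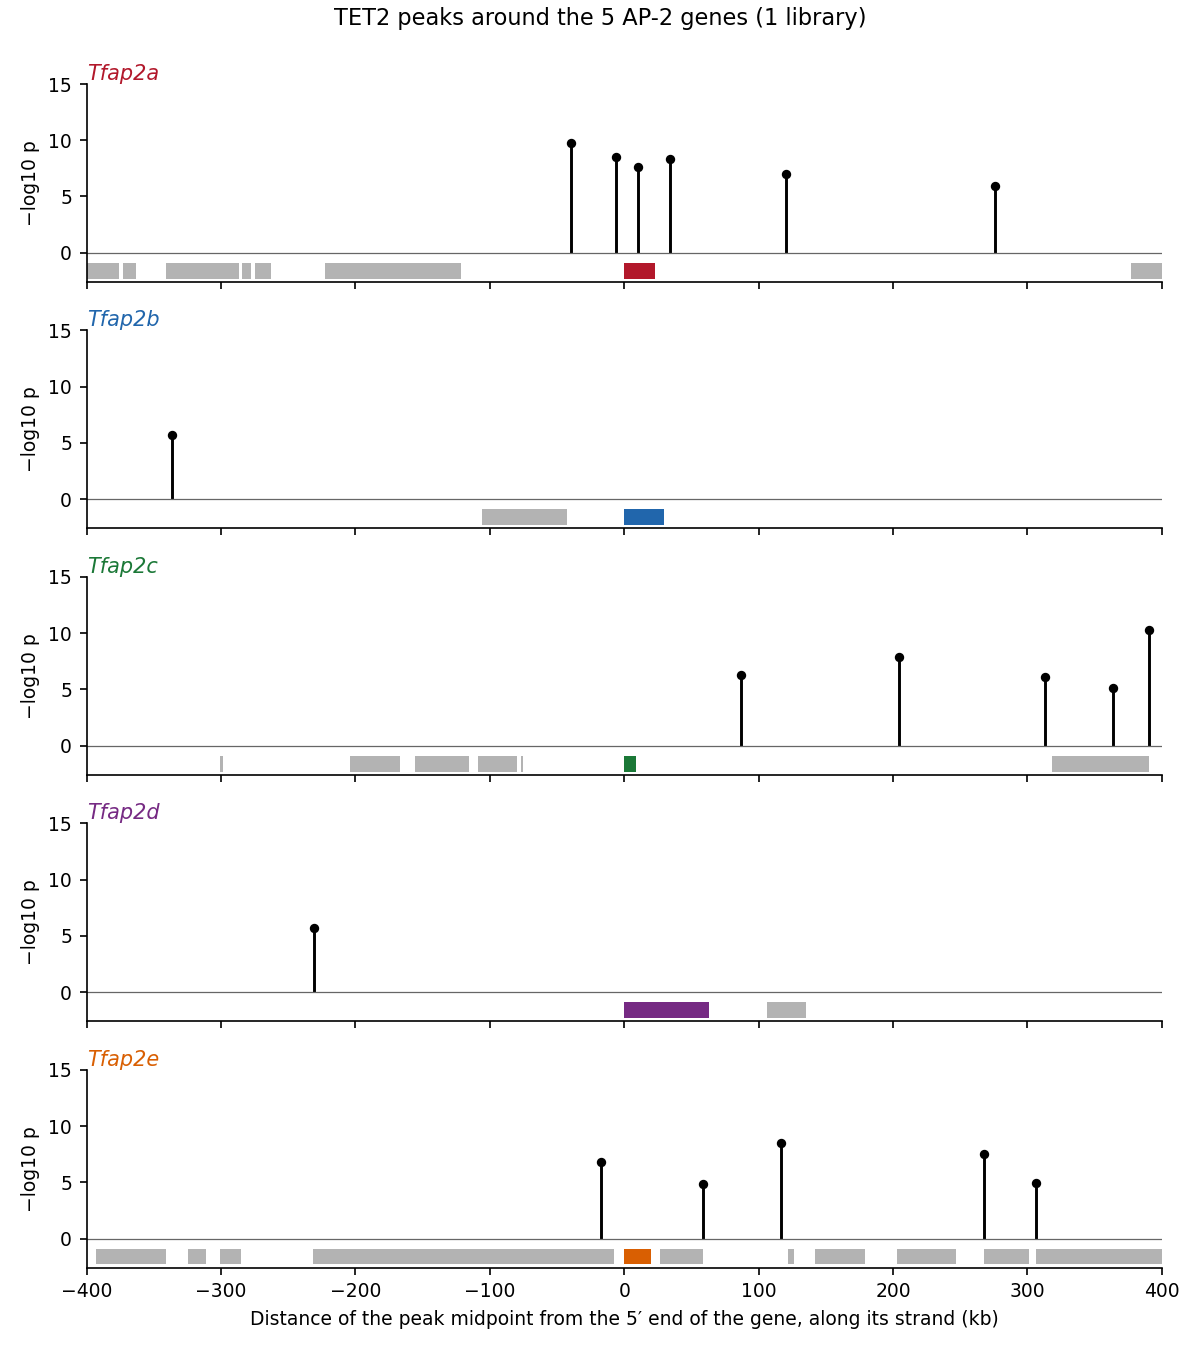
Peaks around each AP-2 gene, by distance in kb from the 5′ end of the gene along its direction of transcription, with the −log10 p of each peak as height. Within 400 kb there are 6 peaks around Tfap2a, 5 each around Tfap2c and Tfap2e, and 1 each around Tfap2b and Tfap2d.

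The count over the family was set beside that over all protein-coding genes. A peak at a TSS was found for 1 of the 5 AP-2 genes, 20.0% (0.505 to 71.6), and for 5391 of 21951 genes, 24.6%. A peak in the body was found for 1 of 5, against 7047 genes or 32.1%. At least 1 peak within 100 kb was found for 3 of 5, against 18085 genes or 82.4%. With 5 genes the interval of a count of 1 is wide and includes both 24.6% and 32.1%, so no difference between the family and other genes was detectable at a TSS or in the body.

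By distance from the nearest TSS to the nearest midpoint, the order was Tfap2a at 492 bp, Tfap2e at 17143 bp, Tfap2c at 84150 bp, Tfap2d at 230722 bp and Tfap2b at 336614 bp. The only gene inside the limit of 1 kb was thus Tfap2a, and the next by distance, Tfap2e, lay far outside it. The median over all protein-coding genes was 22880 bp. Of all genes, 21.5% had a nearer peak than Tfap2a, 45.0% than Tfap2e, 77.5% than Tfap2c, 92.8% than Tfap2d and 95.7% than Tfap2b. Tfap2a and Tfap2e were therefore on the near side of the median and the other 3 on the far side, where Tfap2b and Tfap2d share one flanking peak and are not separate observations.

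**Figure D3:**
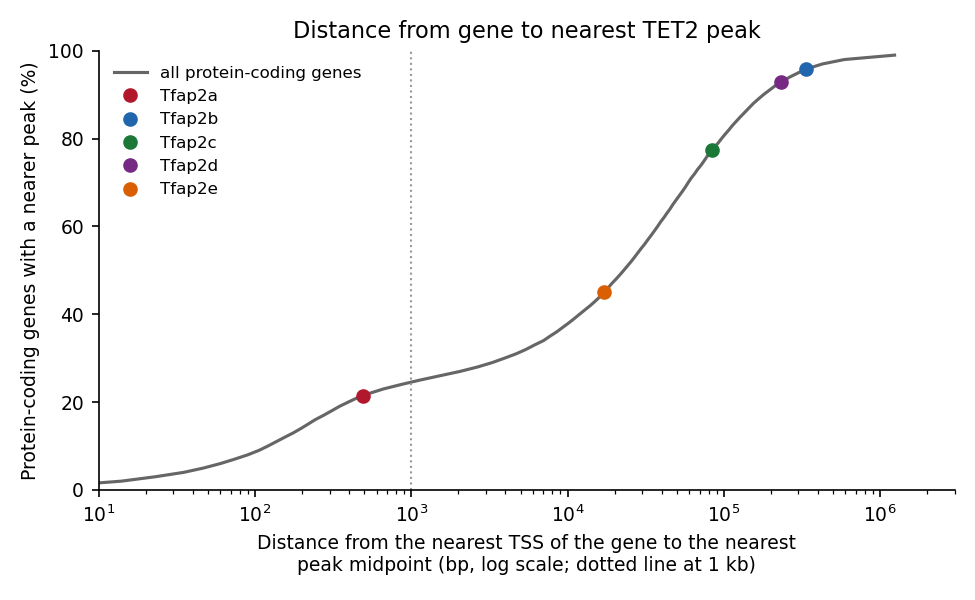
Distance in bp (log axis) from the nearest TSS to the nearest TET2 peak against the percent of protein-coding genes with a nearer peak. The curve is all protein-coding genes, the points are the AP-2 genes, and the points run from 492 bp for Tfap2a to 336614 bp for Tfap2b.

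CpG content and the number of TSSs move with the share of genes that have a peak, and are given for the family for that reason. Among all genes, ranked by the CpG ratio of their most CpG-rich TSS (250 bases before to 50 after it) and divided into 5 equal classes, a peak at a TSS was found for 2.62% of genes in the lowest class and 41.2% (39.8 to 42.7) in the highest. Tfap2a, with a highest ratio of 1.24, and Tfap2b, with 2.05, fell in the highest class. Tfap2c, with 0.937, fell in the next, where 37.4% of genes had a peak. Tfap2e, with 0.647, fell in the middle class, where the share was 31.3%, and Tfap2d, with 0.425, in the class below it, where the share was 10.3%. The 4 genes without a peak at a TSS were thus spread over 4 of the 5 classes.

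The value of Tfap2b came from an internal TSS of a retained-intron transcript. Its coding TSSs at 19208914, the 5′ end of the gene, and at 19208960 had ratios of 1.16 and 1.30. Both values also lie in the highest class, which begins at 0.952. Over 500 bases on each side of the Tfap2b TSSs the highest ratio was 0.677. In the same window Tfap2a had 1.04, Tfap2c 0.917, Tfap2e 0.722 and Tfap2d 0.669. The TSSs of Tfap2a with a peak within 1 kb were not the CpG-rich ones: their ratios were 0.426 and 0.651, and the ratio of 1.24 belonged to the TSS 1991 bp away. Genes with more TSSs have more places to be called. A peak was found for 39.4% (37.5 to 41.3) of genes with 9 or more TSSs, the class of Tfap2a, and for 14.5% of genes with a single TSS, the class of Tfap2e. In the same way a peak in the body was found for 30.5% of genes in the length class of Tfap2a and Tfap2e, and for 57.6% in that of Tfap2d, the longest of the family. Their part in the counts of the family was not tested.

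**Figure D4:**
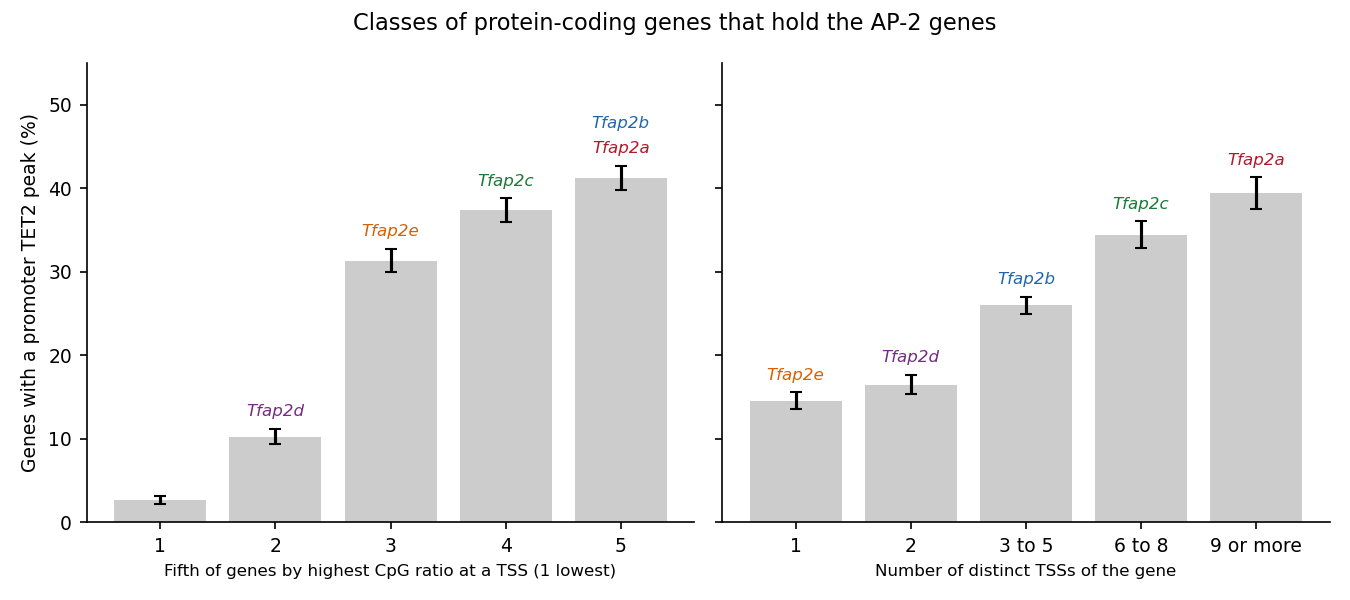
Percent of protein-coding genes with a peak within 1 kb of a TSS, by class of CpG ratio and by number of distinct TSSs of the gene. Bars are shares with exact 95% intervals, and the gene names mark the class in which each AP-2 gene falls, not a value of that gene.

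The sequences before the starts listed by RefSeq show the CpG dinucleotides themselves. Printed are the 250 bases before a start of Tfap2a (chr13:40734921-40735170, minus strand), Tfap2b (chr1:19211804-19212053, plus strand) and Tfap2e (chr4:126736270-126736519, minus strand), 5′ to 3′ from the RefSeq promoter table on GRCm38, with each CpG in capitals.
Tfap2a upstream: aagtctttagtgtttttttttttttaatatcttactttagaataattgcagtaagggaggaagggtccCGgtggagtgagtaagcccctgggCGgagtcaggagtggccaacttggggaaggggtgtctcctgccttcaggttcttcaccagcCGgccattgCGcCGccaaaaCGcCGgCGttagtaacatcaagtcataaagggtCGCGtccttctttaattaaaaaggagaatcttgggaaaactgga
Tfap2b upstream: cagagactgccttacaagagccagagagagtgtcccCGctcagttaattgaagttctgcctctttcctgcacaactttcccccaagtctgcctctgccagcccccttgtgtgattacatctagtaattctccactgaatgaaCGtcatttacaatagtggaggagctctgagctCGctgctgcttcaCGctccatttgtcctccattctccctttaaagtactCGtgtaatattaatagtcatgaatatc
Tfap2e upstream: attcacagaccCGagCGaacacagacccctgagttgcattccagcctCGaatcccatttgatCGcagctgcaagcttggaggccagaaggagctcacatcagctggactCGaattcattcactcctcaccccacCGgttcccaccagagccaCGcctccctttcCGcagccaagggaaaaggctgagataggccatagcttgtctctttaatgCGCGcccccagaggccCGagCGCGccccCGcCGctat
Tfap2e has 15 CpGs in its window, Tfap2a 10 and Tfap2b 5, with CpG ratios of 0.723, 0.729 and 0.391. The windows of Tfap2a and Tfap2b precede starts inside these genes, at 40734920 and 19212054. The Tfap2b window is therefore not that of its 5′ end, where the ratio given above was 1.16. None of these windows holds a peak, and the one with most CpGs belongs to the gene whose close neighbours on both sides carry one.

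The AP-2 motif was searched as GCCNNNGGC, which reads the same on both strands. It matched once in the Tfap2a peak, as GCCCTAGGC at chr13:40728299-40728307, 149 bp from the midpoint in the intron. Of the 9 peaks within 100 kb of an AP-2 gene, 2 held it, 22.2% (2.81 to 60.0), the other being the Ncdn peak. Of all peaks, 33.2% held it, and of peaks within 1 kb of a TSS, 48.7%. The share near the family did not differ from that of all peaks beyond its interval. At the TSSs of the family, 5 of 23 held a match in the 300 bases around them, 2 of Tfap2a and 3 of Tfap2c, which is 21.7% (7.46 to 43.7) against 18.0% of all protein-coding TSSs. None of the 7 RefSeq promoters of Tfap2a, Tfap2b, Tfap2d and Tfap2e held one, against 16.6% of 32851 promoters in that table. A match is only a string of letters in the window and no evidence of binding.

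Binding sites of AP-2 proteins annotated in the mouse genome by RefSeq, a list made after the peaks had been seen, numbered 8. The site at Lep was the only one wholly inside a peak, 12.5% (0.316 to 52.7), where 25 of all 562 annotated binding sites were, 4.45%. The family was chosen for this site, so the share is no evidence about AP-2 sites, and without Lep it was 0 of 7. The Lep peak, chr6:29059811-29060493, had a −log10 p of 11.2 and was number 622 of the list. At Sox10, a regulator of the neural crest, sites lay 38 and 425 bp from the edge of one peak, chr15:79193417-79193850, with a −log10 p of 8.51. The other sites were 27316 bp (Sox10), 30245 bp (Ada), 41881 bp (Nr5a1), 134277 bp (Adh1) and 261571 bp (Trp63) from a peak. The share for C/EBP sites, the other factor family at Lep besides SP1, was 2 of 22, 9.09% (1.12 to 29.2), and for SP1 sites 5 of 14, 35.7% (12.8 to 64.9). The intervals overlap, and annotated sites come from a few well-studied promoters.

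Proteins that work with AP-2 were taken as a list of 10 genes, and 4 of them had a peak at a TSS, 40.0% (12.2 to 73.8), beside 24.6% of all genes. Of these 4, 3 are described. Ep300, which encodes a histone acetyltransferase and coactivator, had a peak with a −log10 p of 9.27. This peak, chr15:81585597-81586104, lay inside the gene, 370 bp upstream of an internal TSS. Its midpoint was also within 1 kb of the 5′ end of the gene, at 81585351. Kctd1, which encodes a repressor of AP-2 activity, had one 354 bp downstream with 8.28, and Cited4, which encodes a coactivator of AP-2, had one 643 bp downstream with 4.15. In the body, 8 of 10 had a peak, 80.0% (44.4 to 97.5), against 32.1% of all genes. The median distance from a TSS was 2869 bp against 22880 bp. This median lies between the distances of Yeats4, 1744 bp, and Crebbp, 3994 bp, both taken from internal TSSs. The share of genes with a peak in the body rises with gene length, as given above, and its part in this count was not tested.

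The partners without a peak at a TSS were Cited1, Cited2, Crebbp, Kctd15, Wwox and Yeats4. Of these, Crebbp, which encodes the coactivator CBP, had its nearest peak 3994 bp from a TSS. The distances were 1744 bp for Yeats4 and 8486 bp for Kctd15, and all of these peaks lay inside the genes. The TSSs are internal, and each peak lay nearer to the 3′ end of its gene than to the 5′ end. The Crebbp peak, chr16:4084348-4084854, lies in a gene that runs from 4081328 to its 5′ end at 4213997. Wwox, a gene of unusual length, had 2 peaks in its body with the nearer 216668 bp from a TSS. Cited1 and Cited2 had none in the body, and their nearest peaks lay 10445 and 182848 bp from a TSS. Within the CITED group the values ranged from 643 to 182848 bp, so the members of one group did not go together.

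Genes described as targets of AP-2 proteins numbered 12, and 3 of them had a peak at a TSS, 25.0% (5.49 to 57.2), close to the 24.6% of all genes. Lep is among them and is the gene for whose site the family was chosen. Without it the count was 2 of 11, 18.2% (2.28 to 51.8). The 3 genes were Lep, Esr1, the estrogen receptor gene, and Mmp2, a gelatinase gene. The Lep peak lay 68 bp upstream of a TSS with a −log10 p of 11.2, and the Mmp2 peak 324 bp downstream with 4.36. The Esr1 peak lay 9 bp upstream of an internal TSS with 6.98. It was inside the gene, at chr10:4712415-4712870, whereas the 5′ end of Esr1 is at 4611593. With the TSSs of coding transcripts alone, the count of target genes was 2. The other 9 genes had their nearest peak 18177 bp (Cdkn1a) to 351585 bp (Ccl2) from a TSS. Among them were the adipokine genes Adipoq at 81838 bp and Il6 at 36571 bp. The median distance over the 12 genes was 59789 bp, longer than that over all genes.

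The families of the other factors with sites at Lep were set beside AP-2. Of 6 C/EBP genes, 3 had a peak at a TSS, a share with an interval from 11.8% to 88.2%. They were Cebpg at 53 bp, Cebpd at 337 bp and Cebpe at 456 bp, while Cebpa, which drives adipocyte differentiation, had its nearest peak at 37566 bp. Of 9 SP genes, 3 had one, 33.3% (7.49 to 70.1), namely Sp2 at 139 bp, Sp3 at 169 bp and Sp4 at 691 bp. The median distance was 4766 bp for the C/EBP genes, 3252 bp for the SP genes and 84150 bp for the AP-2 genes. The intervals of the shares overlap and all include 24.6%, so a difference between the families was not detectable with these numbers of genes.

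**Figure D5:**
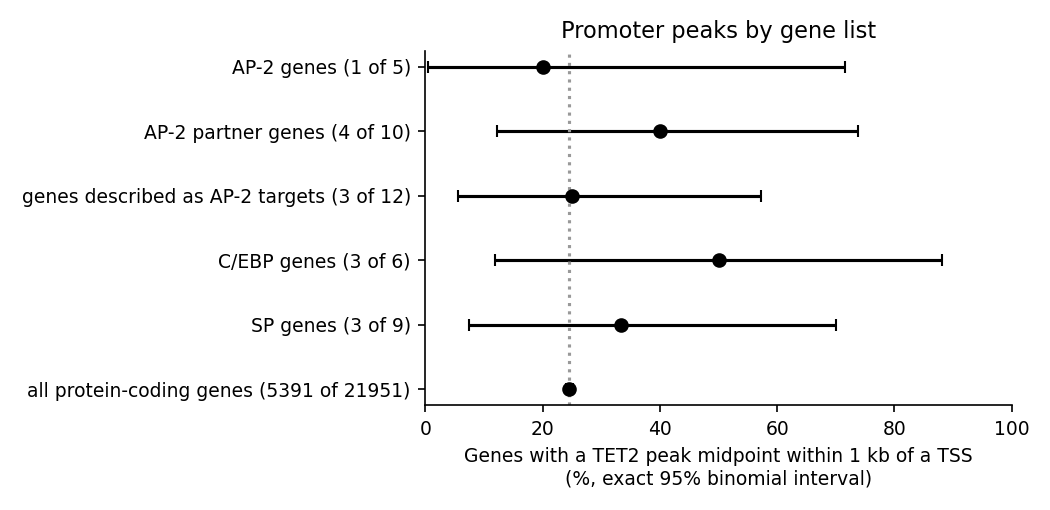
Percent of genes in each list with a peak within 1 kb of a TSS. Points are shares with exact 95% binomial intervals and the line is the share of all protein-coding genes, 24.6%, which lies inside the interval of every list.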

How the data were processed

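TET2 ChIP-seq was performed on 1 library of differentiated ASCs, with 1 input library as control. Reads were checked for quality, aligned with Bowtie and used for peak calling with MACS2 2.1.0 by the authors, per the labels and methods. The deposited list gives the interval of each peak and the −log10 p of the authors' peak caller, which served only to describe and rank peaks. In the rows of the supplementary peak table read here, the column holds the values given between pileup and fold enrichment, the place of −log10 p in MACS2 output. The methods state a threshold that corresponds to a −log10 p of 5, and 11921 of the 14103 deposited peaks reach it, so the list holds peaks below that threshold. The labels name mm10 (GRCm38) and the methods GRCm39. Coordinates were read as 1-based GRCm38 and none were converted. The sources state a total yield but no read count for either library, so depth was not used, and the input library was not analysed on its own.

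Peaks were placed by their midpoints against GENCODE M21 in Python 3.11.15. Tables were handled with pandas 2.3.3 and numpy 2.4.6, intervals computed with scipy 1.17.1, genome sequence read with pysam 0.24.0 and figures drawn with matplotlib 3.10.9. A peak counted at a TSS when its midpoint lay within 1 kb. No p-value was computed, since there is no replicate. Placement and motif search were tested on simulated data, where 200 of 200 planted genes and 250 of 250 planted motifs were recovered. The genes, lists and alternatives were chosen with earlier results of these data known, and the list of annotated binding sites was added after the peaks had been seen. The text names the AP-2 genes, their neighbours, Lep, listed genes with a peak at a TSS and others named after their values were seen. CpG classes use the most CpG-rich TSS of a gene, a choice made after the design. Of 2 Ddit3 gene entries, the longer was used. One gene of the list of AP-2 partners is counted but not reported here by itself.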

Additional observations from a re-analysis of the deposited data

How the results depend on the processing

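Of 80 alternatives, 54 left the value within 1.5 times (counts and distances) or its interval (the share of all genes), and 26 moved it. Of these 80, 5 were chosen after seeing the data, those with the TSSs of the GENCODE basic set and of the RefSeq promoter table and that without Lep. The share of all protein-coding genes with a peak at a TSS was 25.3% counting any base of the peak, 21.6% within 500 bp, 28.5% within 3 kb, 23.1% with coding TSSs, 22.4% with basic TSSs and 22.5% with RefSeq TSSs. The count of AP-2 genes stayed at 1, Tfap2a, under all of these except RefSeq TSSs, which do not include Tfap2c here, where it was 0.

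A minimum −log10 p of 5 left 11921 peaks, a share of all genes of 22.1%, 1 SP gene and 2 peaks within 100 kb of Tfap2e. A minimum of 8 left 3394 peaks, so fewer genes could be called. The share of all genes was then 7.61%, with 0 AP-2 genes at a TSS and 0 in the body. Of the other lists, 3 of the 10 partner genes, 1 target gene, 1 C/EBP gene and 0 SP genes had a peak at a TSS. Nearest peaks were then 6442 bp from Tfap2a, 116400 bp from Tfap2e, 388233 bp from Tfap2c, 589214 bp from Tfap2d and 695106 bp from Tfap2b, and within 100 kb there were 3 around Tfap2a, 0 around Tfap2c and 1 around Tfap2e. The share of SP genes lay above that of all genes as reported and below it under both minimums. The share of target genes, which was close to that of all genes as reported, lay below it counting any base, within 3 kb, with coding TSSs and with a minimum of 5. Within 50 kb there were 0 around Tfap2c. The nearest base of the Tfap2a peak was 272 bp from a TSS, and 1 of the 9 peaks held the motif within 100 bp of its midpoint.

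No paired analysis was possible because no result comes from a test and the TET2 library was made once. The unknown depth limits what the absence of a peak at 4 of the 5 AP-2 genes can show.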

Other observations

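The marker genes of adipocytes were described in the same way, as the cell type named in the labels. Of 8, only Lep had a peak at a TSS, 12.5% (0.316 to 52.7) beside 24.6% of all protein-coding genes, and none had one in the body, which allows a share of up to 36.9% beside 32.1%. Both background shares lie inside these intervals, so the counts show nothing particular to these genes. The nearest peak lay 15763 bp from a TSS of Fabp4, which encodes a fatty acid binding protein, 23173 bp from Cidec, a lipid droplet gene, and 37566 bp from Cebpa. It lay 41677 bp from Lpl, the lipoprotein lipase gene, 60264 bp from Plin1, the perilipin gene, 81838 bp from Adipoq and 104830 bp from Pparg, the master regulator of adipocyte differentiation. The median highest CpG ratio of these genes was 0.504, against 0.695 over all protein-coding genes. A peak does not measure expression, so these values do not bear on which cells were in the dish.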
